A study of Mus musculus with 16 samples.

Results

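The 7 genes described here encode the DNA-binding proteins that sit on the promoters of the MHC class II genes: Rfx5, Rfxap and Rfxank, the 3 subunits of the RFX complex, Nfya, Nfyb and Nfyc, the 3 subunits of NF-Y, and Creb1, a cyclic AMP-responsive factor. They were taken by gene symbol, with earlier results of these data known. A gene was read from the probe set (a group of short probes on the array) that carries its symbol and no other, and from the one with the highest mean signal where there was more than 1. All 7 genes had such a probe set, out of 19938 genes tested, and Nfyc had 2.

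Class II promoters carry a shared block of short elements, called the X and Y boxes, that lies just before the start of transcription. RFX binds the X box, CREB binds the adjoining X2 box and NF-Y binds the Y box, which is a CCAAT element. Together they form a platform that is present in many cell types. The transactivator Ciita does not bind DNA by itself. It is recruited by this platform and switches class II transcription on. In the bare lymphocyte syndromes, a loss of RFX5, RFXAP, RFXANK or CIITA leaves immune cells with little or no class II on their surface.

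Expression was measured in sorted classical dendritic cells of mice without Ciita (Ciita -/-, called KO) and of mice with it (Ciita +/+, called WT). Mice of both genotypes were B6 and carried 1 GFP allele of Zbtb46 (Zbtb46 GFP/+), so all 8 groups share a reporter in place of 1 copy of this dendritic cell factor. The mice's ages were not given in the sources used here. CD24+ cells and CD172a+ cells were sorted either from resting spleen or from bone marrow kept 9 days in medium with 5% Flt3l, exposed to gamma interferon and, at the end, to LPS for 4 hours. For gamma interferon the growth protocol states 22 hours and the series design 16 hours. Each of 8 mice gave 1 CD24+ and 1 CD172a+ array, so each of the 8 groups of tissue, subset and genotype held 2 arrays. Culture differs from spleen in origin, growth factor and activation at once, and these cannot be told apart.

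The markers of the sorted subsets separated the sorts clearly in spleen and less so in culture. Of 10 cDC1 markers, 9 were higher in CD24+ cells in spleen, and 7 were higher and 1 lower in culture. Of 10 cDC2 markers, 9 were lower in CD24+ cells and 1 higher in spleen, but in culture 4 were lower and 1 higher, with a median difference of -0.15. Over the 10 markers of cDC1, the subset sorted as CD24+, the mean log2 signal of an array was 12.11 to 12.34 in CD24+ and 8.81 to 8.97 in CD172a+ spleen cells. In culture it was 10.78 to 11.11 and 9.11 to 9.37. Over the 10 markers of cDC2, the subset sorted as CD172a+, it was 7.73 to 7.91 in CD24+ and 10.11 to 10.20 in CD172a+ spleen cells, against 6.68 to 6.80 and 6.96 to 7.23 in culture. One array stood apart: KO replicate 2 of cultured CD24+ cells had an Xcr1 level of 9.58 against 10.41 to 10.87 in the other 3 arrays of that sort, and a Sirpa level of 9.17 against 8.36 to 8.43, both genes chosen after their values were seen. In that array 7 of 10 cDC1 markers were below the other 3 arrays and 3 above them, and 6 of 10 cDC2 markers were above and 2 below, among the latter Itgam at 6.31 against 6.77 to 7.12. Its cDC1 mean of 10.78 was the lowest of the 4, the highest being 11.11, and its cDC2 mean of 6.73 lay within the 6.68 to 6.80 of the others. Lists of other cells shifted in that array too. Of 5 T cell markers, 5 were above the other 3 arrays, with a mean of 6.6 against 6.24 to 6.26. Of 6 monocyte or macrophage markers, 4 were below and 0 above, with a mean of 7.25 against 7.52 to 7.72. The probe set of Ciita, the targeted gene, averaged 11.04 in KO and 11.01 in WT spleen CD24+ cells, and 11.11 and 11.34 in spleen CD172a+ cells. In culture it averaged 8.92 in KO and 10.68 in WT CD24+ cells, and 7.76 and 10.39 in CD172a+ cells. By the genotype test used below (limma adjusted p under 0.05), Ciita was not called in spleen or in culture. No source used here says whether its probes lie in the deleted part, so the spleen values do not check the labels. Array number limits the precision of every value, and bulk signals cannot tell fewer cells of a type from less RNA per cell.

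The sequences that RFX and NF-Y are known to read are shown first, because they are the sites through which these 7 genes and Ciita act on class II transcription. RefSeq promoters on GRCm38.p6, each from 250 bases before to 50 bases after a gene's start, were searched for GCAAC, the core of the X box, followed on the gene's strand by GATTGG, the Y box, with 15 to 35 bases between them. GATTGG holds ATTGG, which is CCAAT on the other strand. Of 11 class II genes listed, 8 were in the promoter table and 5 of those 8 held the spaced pair, in windows at chr17:34287859-34287914 (minus strand, H2-Aa), chr17:34305766-34305820 (plus, H2-Eb1), chr17:34325533-34325587 (plus, H2-Eb2), chr17:34092293-34092348 (plus, H2-Oa) and chr17:34238808-34238860 (plus, H2-Ob). The pair occurred in 65 of 32851 promoters, or 0.198%. By itself, on either strand, GCAAC was in 35.2% of promoters, GATTGG in 16.1%, CCAAT in 37.4% and TGACG, the core of a CREB site, in 20.8%. The capitals mark the X box core and the Y box, 5′ to 3′ on the gene's strand:
H2-Aa: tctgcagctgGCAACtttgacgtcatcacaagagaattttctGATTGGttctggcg
H2-Eb1: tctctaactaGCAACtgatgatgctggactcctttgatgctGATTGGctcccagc
H2-Eb2: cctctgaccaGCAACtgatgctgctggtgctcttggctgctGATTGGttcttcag
H2-Oa: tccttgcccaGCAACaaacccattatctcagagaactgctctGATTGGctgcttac
H2-Ob: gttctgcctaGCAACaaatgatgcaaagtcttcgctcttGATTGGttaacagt

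In these windows 24 to 27 bases separate the X box core from the Y box, and the Y box begins 44 to 101 bases before the start. Of the 5 windows, 1, that of H2-Aa, also held TGACG on either strand, between the X box core and the Y box. The pair was not found in the promoters of H2-DMa, H2-DMb1 and H2-DMb2. A match of letters is a description and shows no binding.

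Among the factors themselves, 6 of 7 were in the promoter table. Of those 6, 4 (Rfx5, Rfxank, Nfya and Nfyc) held CCAAT on either strand in at least 1 listed promoter. The share over all promoters, 37.4%, is per promoter and not per gene. Nfya and Nfyc had several listed promoters, some of them without CCAAT, so the gene count cannot be set against that share. The promoter of Rfx5, shown because Rfx5 was the member whose KO arrays were lower in every tissue and subset, lies at chr3:94953858-94954157 (plus strand) and holds 2 CCAAT elements, in capitals, that begin 113 and 54 bases before the start:
Rfx5: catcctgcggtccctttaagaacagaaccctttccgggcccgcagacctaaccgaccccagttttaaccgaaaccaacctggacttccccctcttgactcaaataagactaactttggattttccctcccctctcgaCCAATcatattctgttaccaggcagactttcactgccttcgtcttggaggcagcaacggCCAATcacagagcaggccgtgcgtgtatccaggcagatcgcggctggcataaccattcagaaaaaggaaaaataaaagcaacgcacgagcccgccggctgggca

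**Figure D1:**
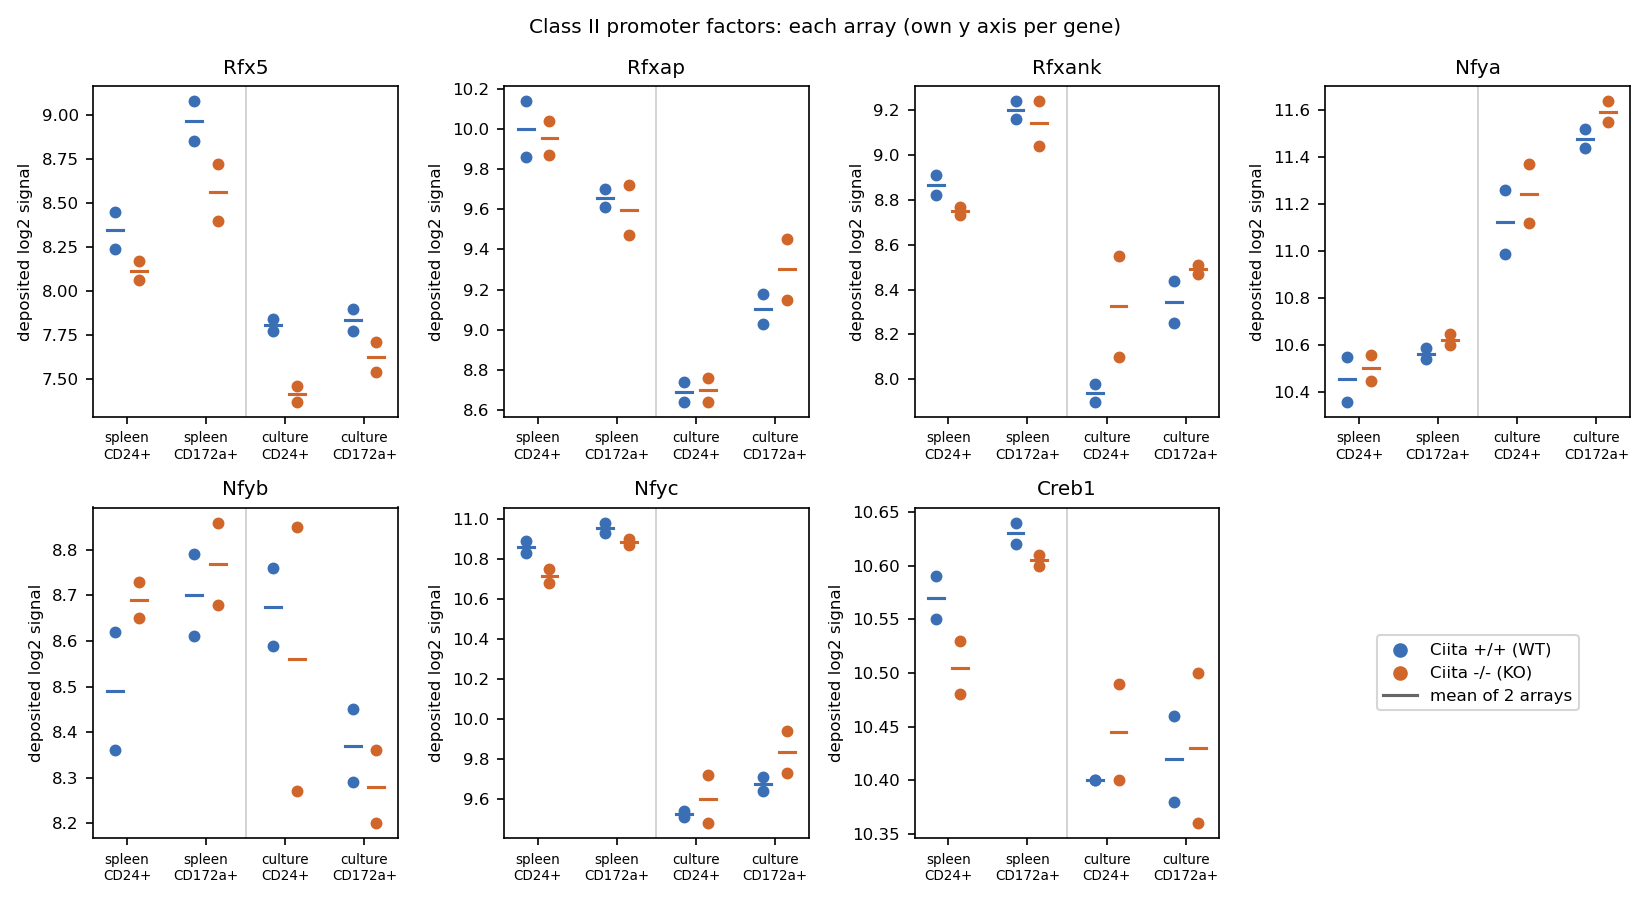
Deposited log2 signal of each of the 7 factor genes in each of the 16 arrays (points; blue WT, orange KO; short lines are means of 2 arrays), by tissue and sorted subset, with a y axis of its own per gene. The orange Rfx5 points lie below the blue ones in all 4 pairs of groups, Rfxap is higher in CD24+ than CD172a+ cells in spleen and lower in culture, and Nfya is higher in all 8 culture arrays than in all 8 spleen arrays.

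The first question is whether the platform genes changed when Ciita was missing. None of the 7 passed the test. In contrast, of 9 measured class II genes, 7 fell in KO spleen CD24+ cells and 8 fell in each of spleen CD172a+, cultured CD24+ and cultured CD172a+ cells (limma, Benjamini-Hochberg adjusted p under 0.05 over 19938 genes). That list is what Ciita is known for and was known to fall in these arrays, so its count serves here as a yardstick. The median KO minus WT change of the class II genes was -1.58, -2.54, -2.44 and -3.24 in the 4 comparisons in that order, and that of the 7 factors was -0.06, -0.06, 0.04 and 0.11. Over all genes the median lay between 0.00 and 0.02, and 0.0602%, 0.0802%, 0.0953% and 0.0602% of genes were called. With the threshold put on the unadjusted p instead, 0, 1, 2 and 0 of the 7 factors passed, against 4.52%, 5.22%, 7.05% and 6.63% of all genes. In a test on simulated data a change of 0.5 was recovered for 54% of genes and one of 0.25 for 8% in the cultured CD24+ comparison, so small changes could be missed.

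Rfx5, the subunit of RFX that contacts DNA through its winged-helix domain, had the most regular genotype difference of the 7. In spleen CD24+ cells its log2 signal was 8.24 and 8.45 in the WT arrays and 8.17 and 8.06 in the KO arrays. In spleen CD172a+ cells it was 9.08 and 8.85 in WT and 8.72 and 8.40 in KO. The KO arrays lay below the WT arrays in both. In cultured CD24+ cells WT arrays read 7.84 and 7.77 and KO arrays 7.46 and 7.37. In cultured CD172a+ cells WT arrays read 7.77 and 7.90 and KO arrays 7.71 and 7.54. Rfx5 was thus lower in both KO arrays than in both WT arrays in all 4 pairs of groups, a pattern that 46 of 19938 genes, or 0.231%, had, while 0.211% had the opposite one.

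The size of the Rfx5 difference was small. KO minus WT was -0.23 ± 0.12 (SE) in spleen CD24+ cells (limma adjusted p = 1.000), -0.40 ± 0.12 in spleen CD172a+ cells (0.639), -0.39 ± 0.12 in cultured CD24+ cells (0.577) and -0.21 ± 0.12 in cultured CD172a+ cells (0.824). With the mouse as the unit and its 2 arrays averaged, it was -0.31 ± 0.06 (limma adjusted p = 0.370). In that comparison 0.0903% of genes and 0 of the 7 factors were called, and Rfx5 was the 1 factor with an unadjusted p under 0.05, as 6.05% of all genes had. Mouse means of Rfx5 were 8.66 and 8.65 in WT and 8.45 and 8.23 in KO spleen, and 7.80 and 7.84 in WT and 7.59 and 7.45 in KO culture, so the genotypes did not overlap within a tissue. The call rested on which mice were in the fit: without KO mouse replicate 1 of the culture the difference was -0.34 ± 0.06 and passed (limma adjusted p = 0.0337). The difference did not itself differ measurably between tissues (0.02 ± 0.11, culture minus spleen, limma adjusted p = 0.993) or between subsets (adjusted p = 0.999).

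Of 68 markers of dendritic and other cells tested by genotype, 1 was called, in spleen CD24+ cells: Derl3, listed for plasma cells, fell by 0.61 (limma adjusted p = 0.0119). None of the monocyte or neutrophil markers was called. Their list means are given beside Rfx5 because some ranges did not overlap between genotypes. That was not particular to these lists. In cultured CD172a+ arrays the cDC1 mean was 9.11 to 9.22 in KO and 9.31 to 9.37 in WT. The cDC2 mean there was 6.96 to 7.1 and 7.21 to 7.23. In spleen CD24+ arrays the cDC1 mean went the other way, at 12.27 to 12.34 in KO and 12.11 in WT. Over 6 of 8 listed monocyte or macrophage markers measured, the mean signal was 9.77 to 9.89 in KO and 10.02 to 10.07 in WT spleen CD172a+ arrays, and 6.61 to 6.75 in KO and 6.85 to 6.90 in WT cultured CD172a+ arrays. In CD24+ cells the ranges of that list overlapped between genotypes, at 8.80 to 8.99 and 8.93 to 9.00 in spleen and 7.25 to 7.72 and 7.52 to 7.63 in culture. Over 8 neutrophil markers the mean was 7.23 to 9.01 in KO and 6.58 to 7.53 in WT spleen CD24+ arrays, which overlap. Spi1, the gene of PU.1, a myeloid factor listed with the regulators of Ciita, had a KO minus WT difference of -0.53 ± 0.13 over the 8 mice (limma adjusted p = 0.620). The part of these markers in the Rfx5 values was not tested.

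Rfxank, the ankyrin-repeat subunit of RFX, had the opposite sign to Rfx5 in culture. In cultured CD24+ cells its log2 signal was 7.98 and 7.90 in WT and 8.10 and 8.55 in KO, a difference of 0.38 ± 0.13 (limma adjusted p = 0.584). The higher KO array is replicate 2, the array with low Xcr1, and its 8.55 lies above all arrays of cultured CD172a+ cells, which read 8.25 to 8.51. Without that array the difference was 0.16 ± 0.11 (adjusted p = 0.747), and with it as the lone KO array, assumed to vary like the other groups, it was 0.61 ± 0.11 and passed (adjusted p = 0.0063). In cultured CD172a+ cells Rfxank was 8.44 and 8.25 in WT and 8.51 and 8.47 in KO, and in spleen its KO minus WT values were -0.12 ± 0.13 in CD24+ and -0.06 ± 0.13 in CD172a+ cells. The genotype effect of Rfxank in culture minus that in spleen was 0.35 ± 0.12 over the mice (limma adjusted p = 0.933). In that comparison 0 of 7 factors were called, with 0.00502% of all genes, and 2 factors, Rfxank and Nfyc, had an unadjusted p under 0.05, as 4.98% of all genes had.

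Rfxap, the RFX-associated protein, differed by 0.19 or less between genotypes in all 4 comparisons, with SE 0.13. Its KO and WT arrays overlapped in every pair of groups. The genotype comparison of NF-Y gave no call for any subunit. KO minus WT was 0.05 to 0.12 (SE 0.11) for Nfya, which makes the base contacts with CCAAT, and -0.12 to 0.20 (SE 0.16) for Nfyb, a histone-fold subunit. Nfyc, the other histone-fold subunit, was -0.14 and -0.07 in KO spleen cells and 0.08 and 0.16 in KO cultured cells (SE 0.09).

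The 2 probe sets of Nfyc had different spacing of the genotypes in culture. By the lower-mean probe set, KO arrays read 8.61 and 8.48 against 8.32 and 8.18 in WT cultured CD24+ cells, and 8.76 and 8.79 against 8.49 and 8.48 in cultured CD172a+ cells. KO arrays were thus above WT arrays in both, by 0.29 ± 0.07 (limma adjusted p = 0.395 and 0.412), while in spleen this probe set gave -0.02 ± 0.07 and -0.04 ± 0.07. The main probe set gave 0.08 ± 0.09 and 0.16 ± 0.09 in culture, so both were above 0 in KO culture and neither passed. Creb1 was the flattest of the 7 by genotype, from -0.06 to 0.04 with SE 0.07, and its 16 arrays all lay between 10.36 and 10.64.

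**Figure D2:**
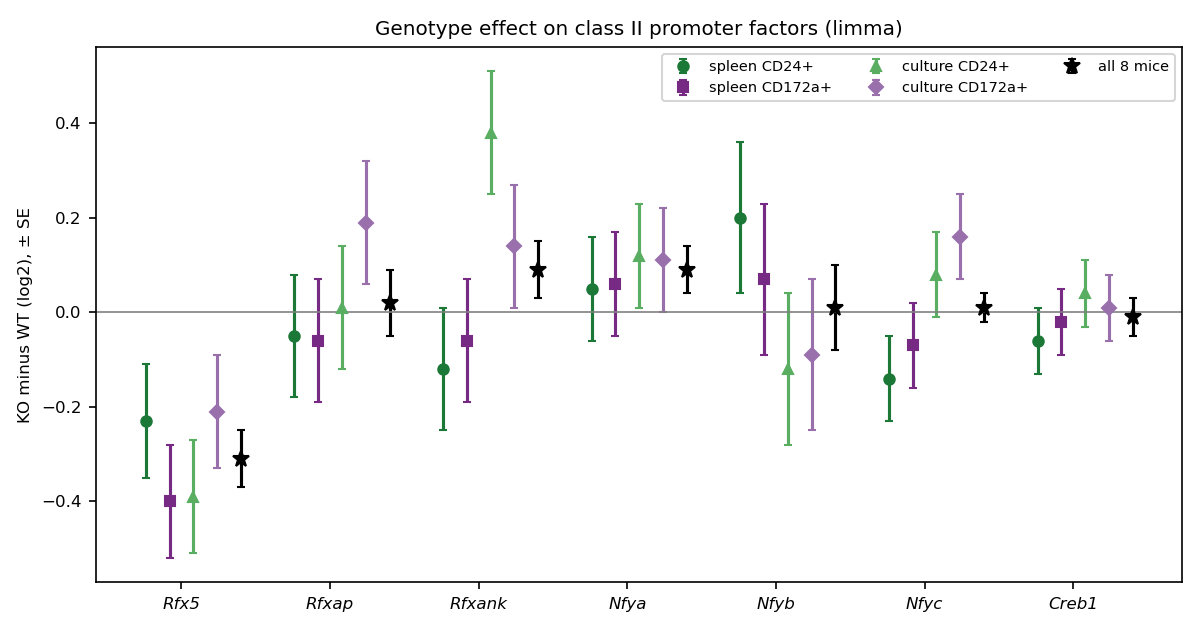
KO minus WT difference in log2 signal (limma estimate, bars are ± SE) of each factor gene in the 4 tissue and subset pairs (coloured symbols, 2 KO and 2 WT arrays each) and over all 8 mice (black stars). Rfx5 is below 0 in every estimate, from -0.21 to -0.40, Rfxank is 0.38 in cultured CD24+ cells, and no estimate passed the adjusted test.

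The second question is whether the 2 subsets carry different amounts of the platform transcripts. In spleen 3 of 7 factors differed between subsets, against 29.1% of all genes: Rfx5 and Rfxank were lower in CD24+ than in CD172a+ cells, as were 13.4% of all genes, and Rfxap was higher, as were 15.6%. In culture 4 of 7 differed, against 24.9% of all genes, and all 4 (Rfxap, Rfxank, Nfya and Nfyc) were lower in CD24+ cells. Over all genes 13.7% were lower in CD24+ cells in culture. The median difference (CD24+ minus CD172a+) of the 7 factors was -0.13 in spleen and -0.19 in culture, against 0.03 and -0.03 over all genes.

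Rfxap changed sides between the tissues. It and Rfx5 were the 2 of 7 factors whose subset difference itself differed between tissues, against 28.2% of all genes. In spleen it read 10.14 and 9.86 in WT and 9.87 and 10.04 in KO CD24+ cells, against 9.70 and 9.61 in WT and 9.47 and 9.72 in KO CD172a+ cells. All 4 CD24+ arrays were above all 4 CD172a+ arrays. In culture CD24+ cells read 8.64 and 8.74 in WT and 8.64 and 8.76 in KO, and CD172a+ cells 9.18 and 9.03 in WT and 9.15 and 9.45 in KO, so all 4 CD24+ arrays were below. The difference was 0.35 ± 0.09 in spleen (limma adjusted p = 0.01), positive in 4 of 4 mice (0.26 to 0.44), and -0.51 ± 0.09 in culture (adjusted p = 0.00118), negative in 4 of 4 mice (-0.69 to -0.29). The change from spleen to culture, tested as an interaction, was -0.86 ± 0.13 (limma adjusted p = 2.91e-04). It passed without any one array, at -0.94 to -0.79. Without KO replicate 1 of spleen CD172a+ cells the spleen difference alone was 0.29 ± 0.10 (adjusted p = 0.0505).

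Rfx5 had its subset difference in spleen. CD24+ arrays read 8.06 to 8.45 and CD172a+ arrays 8.40 to 9.08, overlapping only because the lowest CD172a+ array, a KO, lay below the highest CD24+ array, a WT. The difference was -0.53 ± 0.09 (limma adjusted p = 4.29e-04), and it was negative in each of 4 mice (-0.85 to -0.34). In cultured cells it was -0.12 ± 0.09 (adjusted p = 0.401), negative in 3 of 4 mice. The spleen and culture differences themselves differed by 0.41 ± 0.12 (limma adjusted p = 0.0224). That call was lost without any one of 7 of the 16 arrays, at 0.33 to 0.40, with adjusted p between 0.0501 and 0.0583.

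Rfxank followed Rfx5 in spleen and kept its direction in culture. In spleen CD24+ cells it read 8.73 to 8.91 and in CD172a+ cells 9.04 to 9.24, with no overlap (-0.36 ± 0.09, limma adjusted p = 0.00775, lower in 4 of 4 mice). In culture it was -0.29 ± 0.09 (adjusted p = 0.0326) and lower in CD24+ cells of 3 of 4 mice. The exception was the mouse of the array with low Xcr1. Without that array the difference was -0.40 ± 0.07 (adjusted p = 6.71e-04), and without any one of 6 other culture arrays it was -0.17 to -0.31 and missed the threshold (adjusted p 0.0557 to 0.128).

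Nfya and Nfyb, both NF-Y subunits, had subset differences of opposite sign in culture. Nfya read 10.99 to 11.37 in cultured CD24+ cells and 11.44 to 11.64 in CD172a+ cells, with no overlap (-0.36 ± 0.08, limma adjusted p = 0.00366, 4 of 4 mice). Nfyb read higher in the CD24+ array of each of the 4 cultured mice, by 0.07 to 0.49. Its difference of 0.29 ± 0.12 missed the threshold (adjusted p = 0.0925), and passed with the mouse as a block (0.0352). Without KO replicate 2 of cultured CD24+ cells, whose Nfyb of 8.27 lay among the CD172a+ arrays (8.20 to 8.45), it was 0.44 (adjusted p = 0.00227). The subset difference of Nfyb then also differed between tissues, at 0.58 (adjusted p = 0.00241), against 0.43 ± 0.16 with all arrays (0.0671, and 0.0255 with the mouse as a block). In that array Rfxap, at 8.76, Nfyc, at 9.48, and Nfya, at 11.37, lay below all cultured CD172a+ arrays (9.03 to 9.45, 9.64 to 9.94 and 11.44 to 11.64). Among the cultured CD24+ arrays, its Rfxap and Nfya were the highest, the others reading 8.64 to 8.74 and 10.99 to 11.26. Its Nfyc was the lowest, the others reading 9.51 to 9.72. The marker counts of that array are given above, and their part in its Nfyb and Rfxank values was not tested.

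Nfyc was lower in cultured CD24+ cells, at -0.19 ± 0.06 (limma adjusted p = 0.0437), close to the threshold. With the mouse as a block its adjusted p was 0.0996. Its lower-mean probe set gave -0.24 ± 0.05 (adjusted p = 0.00377) in the same comparison. Creb1 did not pass between subsets in either tissue. In spleen it was -0.08 ± 0.05 (adjusted p = 0.259), although the CD24+ array was the lower in 4 of 4 mice (-0.13 to -0.03) and the subsets did not overlap, and in culture 2 of 4 mice lay on each side. Within a tissue, therefore, the order of the 4 groups followed the subset for Rfxap, and neighbouring groups of the same subset overlapped, whereas for Rfx5 in spleen the order ran WT CD172a+, KO CD172a+, WT CD24+ and KO CD24+, with KO CD172a+ and WT CD24+ overlapping. For Rfx5 in culture both WT groups overlapped, and both KO groups lay below them without overlap.

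**Figure D3:**
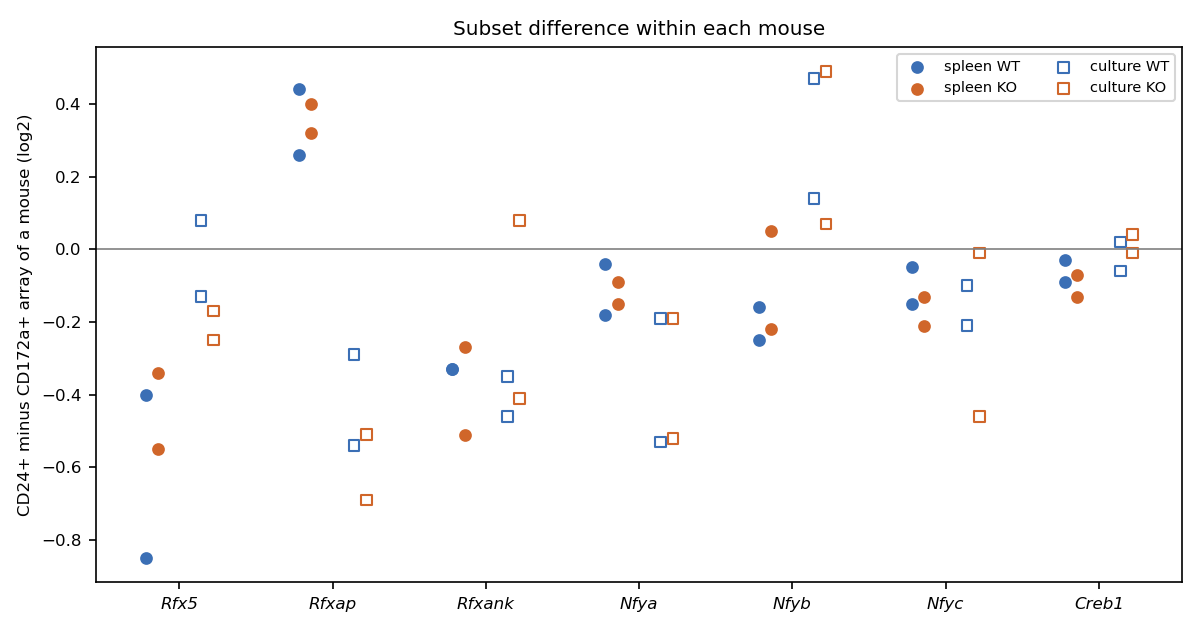
CD24+ minus CD172a+ difference in log2 signal within each of 8 mice for the 7 factor genes (filled circles spleen, open squares culture; blue WT, orange KO). For Rfxap the 4 spleen mice lie at 0.26 to 0.44 and the 4 cultured mice at -0.69 to -0.29, Rfx5 lies at -0.85 to -0.34 in spleen, and Nfya lies at -0.53 to -0.19 in culture.

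The subset differences did not depend measurably on Ciita. The KO minus WT change in the subset difference, over the 8 mice, was called for 0 of 7 factors, against 0.0201% of all genes and 4 of 9 class II genes. None of the 7 had an unadjusted p under 0.05 in this comparison, where 5.14% of all genes did. Its estimates for the factors ran from -0.08 to 0.09, with SE 0.07 to 0.12. In simulated data this comparison recovered 26% of changes of 0.5 and 94% of changes of 1.

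The third question is how the platform stood in activated culture against resting spleen. Here most genes moved: 76.6% of all genes were called in CD24+ and 78.9% in CD172a+ cells, so the counts of 6 and 5 of 7 factors lie near the background. The 6 were 3 higher and 3 lower, and the 5 were 2 higher and 3 lower. As deposited, 1 was higher and 5 lower in CD24+ cells, and 1 higher and 6 lower in CD172a+ cells. The arrays of each tissue lay at a level of their own, array medians being 7.29 to 7.32 for spleen but 6.85 to 6.92 for culture. They may have been scaled as separate sets, but no source used here gives the reason. Each array was therefore set to its median first, after which the median gene stood at 0.125 in CD24+ and 0.148 in CD172a+ cells, where it was -0.336 and -0.277 in the values as deposited. Only members whose direction held under all 4 scalings tried are described as higher or lower.

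Nfya rose and Nfyc fell. As deposited, Nfya read 10.36 to 10.65 across spleen arrays but 10.99 to 11.64 across culture arrays, with no overlap. After median alignment the rise was 1.16 ± 0.07 in CD24+ cells (limma adjusted p = 2.97e-08) and 1.37 ± 0.07 in CD172a+ cells (5.49e-09), and as deposited it was 0.70 and 0.94. Nfyc read 10.68 to 10.98 in spleen and 9.48 to 9.94 in culture, and fell by 0.76 ± 0.06 in CD24+ (adjusted p = 4.65e-07) and by 0.74 ± 0.06 in CD172a+ cells (5.19e-07). Its other probe set gave -0.99 and -0.86. So 2 subunits of the same trimer were on opposite sides of the median gene, in both subsets. Markers of other cells moved between the tissues too. Of the monocyte or macrophage markers 4 of 6 were lower and 2 higher in cultured CD24+ cells (median -1.30), and 6 of 6 were lower in CD172a+ cells (-3.02). Of the T cell markers 5 of 5 (-1.47) and 4 of 5 (-1.21) were lower, and of the neutrophil markers 7 of 8 were lower and 1 higher in CD24+ cells (-1.27), and none lower and 1 higher in CD172a+ cells (-0.20). Their part in the culture minus spleen values of the factors was not tested.

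Of the RFX subunits, Rfxap and Rfx5 differed by subset in their change, and Rfxank did not pass that test (0.08 ± 0.13, limma adjusted p = 0.700). Rfxap fell by 0.82 ± 0.09 in CD24+ cells (limma adjusted p = 3.84e-06), while in CD172a+ cells its change was 0.00 ± 0.09 (0.969) and its sign depended on the scaling. Rfx5 fell by 0.61 ± 0.09 in CD172a+ cells (adjusted p = 4.03e-05). In CD24+ cells its call depended on the scaling: it was -0.16 ± 0.09 (0.118) by aligned medians and 0.01 (0.940) after quantile normalization, but passed as deposited, at -0.62 (2.50e-05), and with the median gene set to 0, at -0.28 (0.01). Rfxank was -0.21 ± 0.09 (adjusted p = 0.0393) and -0.33 ± 0.09 (0.00408), and missed the threshold in both subsets after quantile normalization, at -0.01 and -0.14, and among genes with a mean above 6, at -0.07 and -0.16. The call in CD24+ cells was also lost without any one of 7 of its 8 arrays (adjusted p 0.0529 to 0.174), with -0.11 without KO replicate 1 of cultured CD24+ cells. The unequal falls of Rfxap and Rfx5 are the interactions given above, in which a scaling shift between tissues cancels.

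Creb1 had no settled direction in either subset, and Nfyb had none in CD172a+ cells. In CD24+ cells Nfyb was 0.49 ± 0.12 by aligned medians (limma adjusted p = 0.00328) and 0.64 after quantile normalization (9.43e-05). As deposited it was 0.02 there and missed the threshold (0.849). In CD172a+ cells Nfyb was 0.02 ± 0.12 by aligned medians but -0.41 as deposited. Creb1 was 0.35 ± 0.05 and 0.24 ± 0.05 above the median alignment in the 2 subsets and -0.11 and -0.19 as deposited. Its arrays spanned 10.48 to 10.64 in spleen and 10.36 to 10.50 in culture, the narrowest range of the 7.

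**Figure D4:**
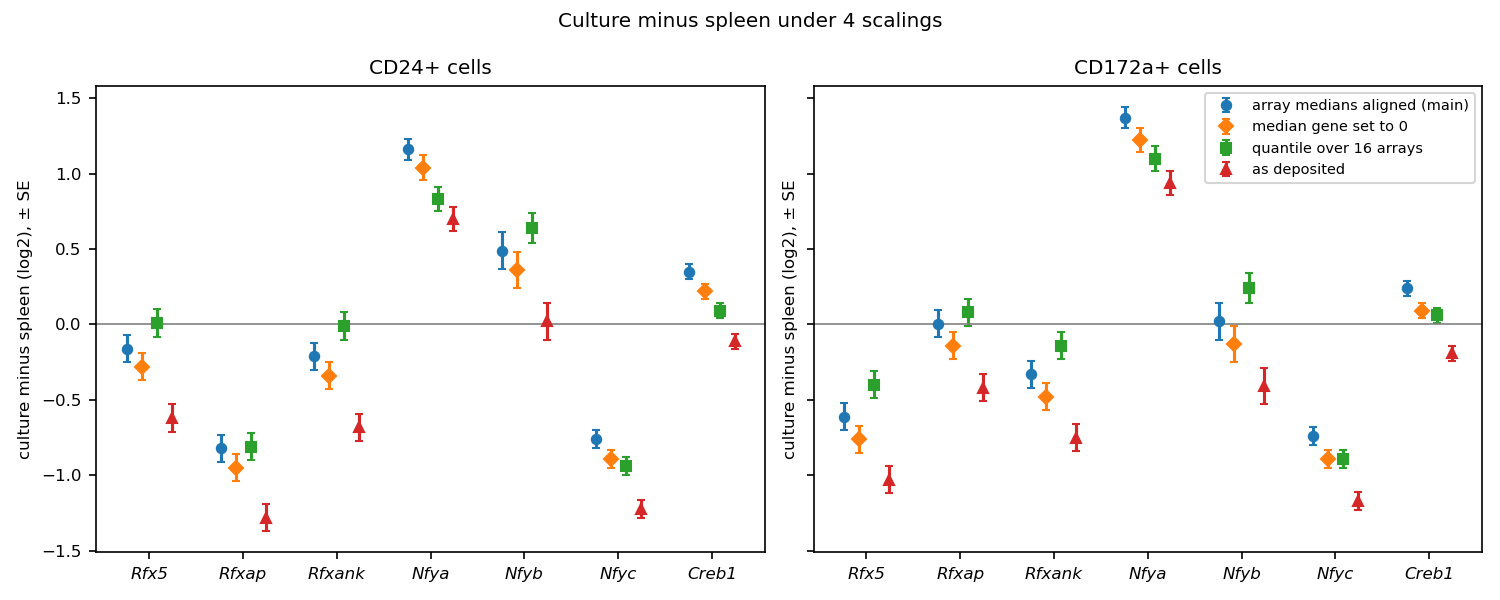
Culture minus spleen difference in log2 signal (limma estimate, bars are ± SE) of each factor gene in CD24+ (left) and CD172a+ cells (right) under 4 scalings (symbols). Nfya is above 0 and Nfyc below 0 under all 4 in both panels, and Creb1 is 0.35 and 0.24 by aligned medians but -0.11 and -0.19 as deposited.

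The listed relatives and partners of the 7 factors gave no call in any of the 4 genotype comparisons. These were 0 of 7 other RFX family genes and 0 of 14 CREB, CREM and ATF genes. They were also 0 of 15 coactivators and chromatin enzymes reported to bind Ciita, and 0 of 12 measured regulators of Ciita transcription. Of all genes 0.0602% to 0.0953% were called in these comparisons, so counts of 0 in lists of this size lie near the background. The largest changes in the coactivator list were those of Kat2a, a histone acetyltransferase, at 0.37 ± 0.10 in cultured CD172a+ cells (limma adjusted p = 0.482), and of Taf1, a subunit of TFIID, at -0.40 ± 0.24 (0.838). In culture against spleen, Rfx3, the RFX factor of cilia genes, fell by 1.59 ± 0.08 in CD24+ cells (adjusted p = 6.69e-09) and fell by 1.83 ± 0.08 in CD172a+ cells (1.44e-09). Rfx7 was higher in CD24+ than CD172a+ cells in culture by 0.92 ± 0.10 (adjusted p = 2.97e-05), against the lower values of Rfxap and Rfxank there. Nlrc5, the class I counterpart of Ciita that acts through the same RFX platform, rose by 1.84 ± 0.10 and 2.68 ± 0.10 (adjusted p = 5.82e-09 and 1.48e-10).

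Genes that NF-Y and CREB are known to drive were read beside the factors. Of 11 measured cell cycle genes with CCAAT promoters, 9 fell in cultured CD24+ and 11 in cultured CD172a+ cells, against 29.5% of all genes lower in each, with medians of -0.71 and -1.43. Ccnb2, a mitotic cyclin, fell by 2.46 ± 0.09 in CD24+ cells and fell by 3.19 ± 0.09 in CD172a+ cells (limma adjusted p = 2.65e-10 and 2.05e-11), while in the same arrays Nfya was higher and Nfyc lower. All 11 were below 0 in both subsets under the 4 scalings. Of 11 CREB target genes, 8 fell and 2 rose in CD24+ cells, and 9 fell and 1 rose in CD172a+ cells. Nr4a1, an immediate early receptor gene, fell by 4.78 ± 0.10 in CD24+ and fell by 6.02 ± 0.10 in CD172a+ cells (limma adjusted p = 3.68e-12 and 3.92e-13). None of either list passed by genotype, where 0.0602% to 0.0953% of all genes did in the 4 tissue and subset pairs. Whether the factors had a part in the culture minus spleen changes of these 2 lists was not tested.

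Over the 16 arrays, each gene centred within its tissue, the closest of all genes to Rfx5 were Itpr2 (Pearson r = 0.872) and Fgd3 (0.861), to Rfxap Adprhl2 (0.953) and 1110065P20Rik (0.948), and to Rfxank Gabarapl1 (0.960) and Pank2 (0.953). For Nfya they were Tbk1 (0.959) and Vsig10 (0.952), for Nfyb Mad2l1 (0.916) and Apmap (0.910), for Nfyc Tmem185a (0.913) and Ift172 (0.904), and for Creb1 Emcn (0.869) and Zranb2 (0.861). None of the 7 had another of the 7 among its closest 2, which says little, because all 19938 genes were ranked. Within the platform, Rfxap and Nfya had r = -0.94 over the 8 spleen arrays and 0.76 over the 8 culture arrays, and Rfx5 and Rfxank 0.89 and -0.47. These values are descriptions over arrays that share mice and fall into 2 subsets, and carry no test.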

How the data were processed

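RNA of sorted dendritic cells was isolated (EZNA MicroElute) and amplified (Ovation Pico WTA), per the labels' protocols, and hybridised to 16 Affymetrix Mouse Gene 1.0 ST arrays. The authors deposited log2 signals, 1 per probe set. No source used here gives the background correction or normalization. The range of values, 3.06 to 14.6, shows a log2 scale. Of 30177 probe sets, 21789 had 1 gene symbol, 1621 several and 6767 none. The highest-mean probe set per gene left 19938 genes.

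Tests used limma 3.58.1 in R 4.3.3, on 16 arrays with 1 mean per group (8 residual degrees of freedom) or on 8 mice (4 residual). Array fits treat the 2 arrays of a mouse as independent. All tests were two-sided, and p-values were adjusted by the Benjamini-Hochberg method across the 19938 genes at a threshold of 0.05. Culture minus spleen used arrays centred on their medians. The 2 arrays of a mouse come from the same animal, per the labels, and the correlation of their deviations across genes was -0.096, 0.202, 0.205 and 0.393 (spleen WT, spleen KO, culture WT, culture KO). Labels name the mice. In the array fits p-values rest on a spread between arrays pooled over the 8 groups, each with 2 arrays from 2 animals. In the mouse fits they rest on the spread between animals, with 2 animals per tissue and genotype. Subset comparisons in the array fits leave out the pairing within a mouse, which the mouse block keeps.

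The members, gene lists and cell type markers were chosen with earlier results of these data known. Besides the 7 members, the text names the measured class II genes, Ciita, Nlrc5, at most 2 genes of each other list by largest change in a comparison, and the 2 genes closest to each member; Spi1 over all mice, Derl3, and Xcr1, Sirpa and Itgam per array were chosen after their values were seen. Listed genes not measured by a probe set of their own were not analysed here. The fits were tested on simulated data, with 50 genes changed per size and no mouse effect. Alternatives covered scaling, the filter on dim genes, the choice of probe set, the variance prior, the mouse as a block, WT arrays alone and leaving out each array or mouse. Promoters and names came from RefSeq tables on GRCm38.p6, and no source used here names the array's own build.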

Additional observations from a re-analysis of the deposited data

Results flagged for a closer look

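The subset difference (CD24+ minus CD172a+) of 2 factor genes differed between spleen and culture by a test of the difference itself. For Rfxap it changed by -0.86 ± 0.13 (limma adjusted p = 2.91e-04), from higher in CD24+ cells of 4 of 4 spleen mice to lower in 4 of 4 cultured mice. For Rfx5 it changed by 0.41 ± 0.12 (adjusted p = 0.0224), from lower in CD24+ cells of 4 of 4 spleen mice to lower in 3 of 4 cultured mice. Of all genes, 28.2% passed this test. Groups of 2 arrays are too small for the test of single outlying samples.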

How the results depend on the processing

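The 84 pairs of factor gene and comparison were each recomputed under the listed alternatives; setting the median gene's change to 0, reading Nfyc from its lower-mean probe set and the comparison of the genotype effect between tissues were chosen after seeing the data. Counts of called factors stayed within 1.5 times, except that WT arrays alone called 1 in the spleen subset difference in place of 3, and the culture arrays fitted alone called 2 in culture in place of 4. Without 1 array or mouse the counts were 2 to 3 in the spleen and 2 to 4 in the culture subset difference, 1 to 4 for its change between tissues, 0 to 1 for genotype in cultured CD24+ cells (1 without KO replicate 1, Rfxank), 0 to 1 over all mice (1 without culture KO mouse 1, Rfx5), 5 to 6 and 5 to 5 for culture minus spleen in CD24+ and CD172a+ cells. With the mouse as a block (replicate block) the change between tissues had 3 calls and the culture subset difference 4, with Nfyb in place of Nfyc, and no other call within a tissue changed; the replicate number within a tissue, as a block, called 5 in culture minus spleen in CD24+ cells, without Rfxank. WT and KO share numbers by name alone: the correlation of their deviations was -0.088, 0.042, -0.555 and -0.076.

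Signs turned as follows, and beyond the scaling itself the cause was not tested. In culture minus spleen, values as deposited gave -0.11 (CD24+) and -0.19 (CD172a+) for Creb1, and, in CD172a+ cells, -0.42 for Rfxap and -0.41 for Nfyb; a median gene at 0 gave -0.14 and -0.13 for the latter 2, added probe sets -0.04 and -0.03, and Rfxap gave -0.02 with the number block and -0.12 in WT arrays. Quantile normalization gave 0.01 for Rfx5 in CD24+ cells, and, for genotype, -0.02 for Rfxap in cultured CD24+ cells, -0.0013, -0.0010 and -0.03 for Rfxap, Nfyb and Nfyc over all mice, and -0.04 for Rfx5 between tissues. Median centring gave -0.01 for Creb1 by genotype in cultured CD172a+ cells, 0.02 for Creb1 by subset in culture, and 0.02 for each of Rfx5, Nfya and Creb1 in genotype by subset, where the lower-mean probe set gave 0.01 for Nfyc. WT arrays gave -0.07 for Rfxank in the subset change between tissues.

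Leaving out 1 array gave these ranges across 0. By genotype in spleen CD24+ cells they were -0.19 to 0.09 for Rfxap and -0.05 to 0.14 for Nfya, and in spleen CD172a+ cells -0.19 to 0.07 for Rfxap, -0.16 to 0.04 for Rfxank and -0.02 to 0.16 for Nfyb. In cultured CD24+ cells they were -0.05 to 0.07 for Rfxap, -0.02 to 0.25 for Nfya, -0.41 to 0.17 for Nfyb and -0.04 to 0.20 for Nfyc, and in cultured CD172a+ cells -0.06 to 0.08 for Creb1. Subset values ranged from -0.04 to 0.03 for Creb1 in culture, and their change between tissues from -0.03 to 0.19 for Rfxank and -0.12 to 0.0033 for Nfyc. Culture minus spleen in CD172a+ cells ranged from -0.06 to 0.07 for Rfxap and -0.03 to 0.07 for Nfyb. Leaving out 1 mouse, genotype over all mice ranged from -0.03 to 0.08 for Rfxap, -0.08 to 0.11 for Nfyb, -0.0002 to 0.01 for Nfyc and -0.04 to 0.02 for Creb1. Genotype by subset ranged from -0.11 to 0.11 for Rfx5, -0.03 to 0.21 for Rfxank, -0.09 to 0.08 for Nfya, -0.05 to 0.15 for Nfyb, -0.19 to 0.04 for Nfyc and -0.02 to 0.02 for Creb1, and the genotype effect between tissues from -0.09 to 0.12 for Rfx5 and -0.0004 to 0.12 for Nfya. None of these near-0 values was called. The 4 genotype estimates of Rfx5 and its all-mice estimate stayed below 0 under each alternative. With 2 arrays a group, small changes could be missed.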
